A study of Mus musculus with 39 samples.

Results

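The comparison set anti-PD-1 against an isotype antibody in the CZA arm, by the transcripts of CD8+ T cells that had entered MCA-205 tumours of mice. Its members were the 10 CD8 libraries labelled with a faecal microbiota transplant (FMT) of the CZA arm, of 39 libraries in the series. The anti-PD-1 group held 5 libraries, numbered 6 to 10, and the isotype group held 5 libraries, numbered 1 to 5. All mice were C57BL/6 with the wild-type genotype, and all had received stool of human volunteers with 6 days of CZA, which the labels do not spell out and the series title treats as an antibiotic. None of these 10 libraries came from the arm that also had DAV132, a colon-targeted adsorbent. At 2 weeks after the transplant, cells of MCA-205, a fibrosarcoma line syngeneic to the strain, were placed under the skin. Antibody was given intraperitoneally at tumour sizes of 25 to 35 mm2, as 4 doses of 250 µg every 3 days, with clone RMP1-14 for anti-PD-1 and clone 2A3 for the isotype. Tumours were taken 2 days after the last dose, and CD8+ T cells were sorted and frozen. Whether every library is a separate mouse is not stated, and donors of the stool are not given per library, so the p-values reflect only library-to-library spread, which may be technical. The question was how blockade of PD-1 altered the RNA of tumour CD8 T cells in mice with a CZA-exposed microbiota, the series title naming resistance to this antibody.

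PD-1, encoded by Pdcd1, is an inhibitory receptor that T cells display after repeated antigen contact, together with receptors such as TIM-3, LAG-3 and CTLA-4. T cells held under lasting antigen in tumours pass from a stem-like state marked by Tcf7 to an exhausted state marked by Tox and several inhibitory receptors. MHC class II molecules are displayed mainly by macrophages, dendritic cells and B cells in the mouse, and their chains are scarcely made by mouse T cells. Killer-cell lectin-like receptors are shared between NK cells and subsets of activated CD8 T cells.

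Expression was given as TPM, a transcript abundance scaled for length and library total, which holds no read counts, so depth and counting error are unknown. The T cell markers were present in every library: Cd3e averaged 909 ± 315 TPM under anti-PD-1 and 816 ± 138 TPM under isotype, and Cd8a averaged 307 ± 63.5 and 301 ± 65.5 TPM in the same order (SD, n = 5 each). Cd4 stayed at or under 1.47 TPM and Foxp3, the regulatory T cell factor, at or under 1.62 TPM in all 10 libraries. Entries made of repeats took 3.81% to 14.7% of the listed TPM in the anti-PD-1 libraries and 0.351% to 25.5% in the isotype libraries (two-sided exact permutation test, p = 0.976, n = 5 each). Size factors by the median-ratio method lay between 1.02 and 1.23 under anti-PD-1 and between 0.945 and 1.23 under isotype (two-sided exact permutation test, p = 0.873). The summed TPM of the listed genes was 969892 to 979288 in the anti-PD-1 libraries and 984174 to 986344 in the isotype libraries, so these totals did not overlap. Mitochondrially encoded genes took 3.67% to 7.48% of the listed TPM under anti-PD-1 and 3.86% to 4.94% under isotype.

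The repeat entries are shown because their levels differed widely between single libraries. The 7 simple-repeat entries are annotated genes whose transcripts consist to at least 50% of short tandem repeats, a rule set after the data were seen. The most abundant of these are Gm17604, at chrX:165003765-165004829 on the minus strand, and Gm10181, at chr9:25089422-25089490 on the plus strand (GRCm38). Capitals mark the longest run of a repeated dinucleotide, of 50 bases in Gm17604 and 58 bases in Gm10181.
Gm17604: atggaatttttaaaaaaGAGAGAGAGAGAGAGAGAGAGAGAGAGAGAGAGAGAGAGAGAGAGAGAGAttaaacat
Gm10181: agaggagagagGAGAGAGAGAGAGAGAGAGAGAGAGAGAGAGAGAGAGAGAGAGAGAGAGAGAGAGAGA
Gm17604 was listed at 24560, 77880, 96770, 31630 and 77470 TPM in anti-PD-1 libraries 6 to 10, against 58550, 39280, 1130, 198 and 2043 TPM in isotype libraries 1 to 5. Isotype libraries 1 and 2 lay in the range of the anti-PD-1 libraries, and isotype libraries 3, 4 and 5 lay below all of them. Gm10800, one of the 11 satellite entries, was high in isotype libraries 1 and 4, at 36800 and 36240 TPM, and at 1540 TPM in anti-PD-1 library 6, while the other libraries of both groups held 3.60 to 62.8 TPM.

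Of the 12942 genes that reached 1 TPM in 4 or more CD8 libraries, 2 passed the limma test at an adjusted p under 0.05, both higher under anti-PD-1 (0.0155% of genes tested), and 0 passed in the lower direction (0%). At an unadjusted p under 0.05, 254 genes were higher (1.96%) and 407 were lower (3.14%). The libraries of the groups did not overlap for 149 genes on the higher side (1.15%) and 57 on the lower side (0.44%). A difference of at least 1 on the log2(TPM + 1) scale was seen for 145 genes upward (1.12%) and 242 genes downward (1.87%), and the median over all genes tested was -0.02, with 6796 genes lower and 6146 higher. In simulated data of the same size, 26% to 39% of changed genes were recovered at a log2 change of 1. At a log2 change of 2 it was 93% to 94%. These rates hold for the simulated spread. In the libraries themselves Olfr1346 and Foxp2, at log2 differences of 3.14 and 2.54, did not pass (limma adjusted p = 0.574 and 0.582). The rates thus do not bound the number of changes missed.

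The 2 genes that passed were Gm12895 and Gm12896, processed pseudogenes at chr4:122455210-122455435 and chr4:122122847-122123072, named here after their values were seen. Each transcript is 226 bases long, they share a run of 224 bases, and every library lists both at the same value, so they count as 1 signal that the transcript quantification cannot assign. The Gm12895 transcript, with 71.2% G and C, is shown because it carries the calls of the comparison.
Gm12895: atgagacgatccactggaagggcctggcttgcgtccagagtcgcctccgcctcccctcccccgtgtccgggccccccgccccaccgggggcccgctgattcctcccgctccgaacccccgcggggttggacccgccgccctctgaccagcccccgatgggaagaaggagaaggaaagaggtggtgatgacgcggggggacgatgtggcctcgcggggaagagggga
Gm12895 was listed at 882, 1139, 973, 1089 and 1166 TPM in the anti-PD-1 libraries 6 to 10, against 244, 254, 326, 342 and 303 TPM in the isotype libraries 1 to 5. All 5 anti-PD-1 libraries lay above all 5 isotype libraries. The log2 difference was 1.84 ± 0.31 (SE, adjusted p = 0.0425). The call was lost when any 1 of the 10 libraries was left out, with an adjusted p of 0.0629 to 0.211. These omissions kept the other arm, whose libraries enter the shared estimate of spread. With only the compared groups fitted the limma adjusted p was 0.000285, and without libraries 16 and 19 of the other arm it was 5.29e-07. Over all 20 alternatives the adjusted p ran between 5.29e-07 and 0.342. In the CZA+DAV132 arm the same entry averaged 1173 TPM under anti-PD-1 and 723 TPM under isotype (adjusted p = 0.237).

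**Figure D1:**
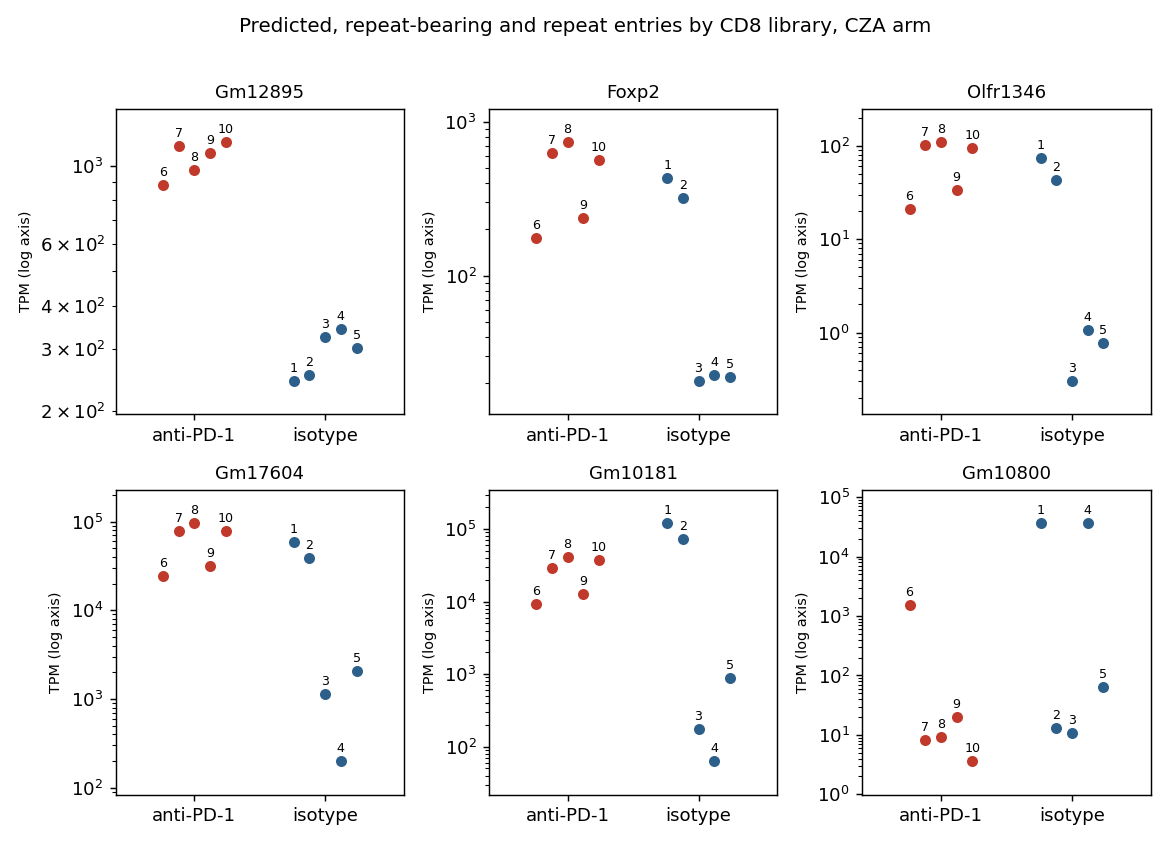
TPM on log axes of the Gm12895 pseudogene, 2 repeat-bearing genes (Foxp2, Olfr1346) and 3 repeat entries in the CD8 libraries of the CZA arm; each point is 1 library with its number, anti-PD-1 left and isotype right. Gm12895 separates the groups, at 882 to 1166 against 244 to 342 TPM, while in the Foxp2, Olfr1346, Gm17604 and Gm10181 panels isotype libraries 1 and 2 lie with or above the anti-PD-1 libraries and isotype libraries 3 to 5 lie below.

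Of the 10 higher genes taken by the naming rule, none passed the adjusted test. AA474408, an unclassified transcript at chr7:110057987-110061325, was listed at 319, 422, 317, 519 and 644 TPM under anti-PD-1 and at 225, 219, 160.3, 166 and 144 TPM under isotype. The groups did not overlap, and the log2 difference was 1.24 ± 0.29 (SE, adjusted p = 0.357). It passed under 3 of the 20 alternatives. Morn3, a MORN-repeat protein gene, averaged 9.35 ± 2.44 TPM under anti-PD-1 and 2.75 ± 1.88 TPM under isotype, and Stxbp5, which encodes the secretion inhibitor tomosyn, averaged 7.32 ± 3.27 and 3.38 ± 0.20 TPM in the same order (SD, n = 5 each), with no overlap in either gene.

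The other higher genes overlapped between the groups. Foxp2, a forkhead transcription factor gene known from brain circuits, was listed at 175, 631, 736, 236 and 565 TPM in the anti-PD-1 libraries and at 434, 319, 20.8, 22.5 and 22 TPM in the isotype libraries. Olfr1346, an olfactory receptor gene, was listed at 20.9, 101, 109, 33.9 and 95.7 TPM under anti-PD-1 and at 73.6, 43.0, 0.306, 1.07 and 0.776 TPM under isotype. As in Gm17604, anti-PD-1 libraries 7, 8 and 10 were high and isotype libraries 3, 4 and 5 low in both. Their annotated transcripts hold runs of a repeated dinucleotide of 60 and 48 bases, and runs of 40 and 38 bases are in Fut1, a fucosyltransferase gene, and Pak4, a p21-activated kinase gene. A run of at least 31 bases was present in 4 of these 10 genes, in 50.7% of the 144 annotated genes with a log2 difference of at least 1, in 11.7% of the 240 annotated genes with one of -1 or lower and in 10.8% of all 12840 annotated genes tested. The part of repeat-derived reads in these values was not tested. Rnf214, Serpinb9b, which belongs to the granzyme-inhibiting serpins, and Gstt1, a glutathione transferase gene, completed the 10 with log2 differences of 0.82 to 1.43 and overlapping groups.

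Transcripts of MHC class II presentation were lower on the whole in the anti-PD-1 libraries, without a gene that passed. Of 17 list members, 15 passed the filter; 13 of these had a lower and 2 a higher mean log2 level under anti-PD-1, with a median difference of -0.96 against -0.02 over all genes. At an unadjusted p under 0.05, 12 of the 15 were lower, against 3.14% of all genes tested, and a log2 difference of -1 or lower was seen for 6, against 1.87%. The groups did not overlap for 1 member, against 0.44%. Because the libraries are bulk RNA of sorted cells, fewer cells of a type and less RNA per cell cannot be told apart.

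The invariant chain gene Cd74, whose product escorts class II chains through the cell, was listed at 139, 210.1, 51.7, 98.3 and 193 TPM in anti-PD-1 libraries 6 to 10, against 176, 261, 259, 521 and 819 TPM in isotype libraries 1 to 5. Isotype library 5 was highest and anti-PD-1 library 8 lowest, and isotype library 1 lay inside the anti-PD-1 range, so the groups overlapped. The log2 difference was -1.48 ± 0.48 (SE, adjusted p = 0.637). The peptide-binding chain genes H2-Aa (chr17:34282744-34287823), H2-Ab1 and H2-Eb1 (chr17:34305867-34316674) averaged 50.4 ± 24.2, 62.5 ± 26.9 and 36.9 ± 20.2 TPM under anti-PD-1, against 129 ± 77.0, 176 ± 134 and 95.2 ± 64.3 TPM under isotype (SD, n = 5 each). Their log2 differences were -1.30 ± 0.49, -1.27 ± 0.57 and -1.29 ± 0.51, with adjusted p-values of 0.80, 0.927 and 0.845.

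The peptide-exchange factor gene H2-DMb2 was the member without overlap, at 1.26, 2.2, 1.07, 2.31 and 1.95 TPM under anti-PD-1 and 2.72, 4.84, 3.27, 5.66 and 6.15 TPM under isotype (log2 difference -0.98 ± 0.31, adjusted p = 0.597). Ifi30, a lysosomal thiol reductase gene that prepares antigens, held 20.0 to 28.1 TPM under anti-PD-1 and 24.9 to 70.1 TPM under isotype, with only isotype library 1 inside the anti-PD-1 range. Lgmn, a gene of a lysosomal protease, had a log2 difference of -1.05 ± 0.39 (SE, adjusted p = 0.785). The promoter-binding factors of class II genes did not share the shift, with differences of -0.15 for Rfxap, 0.05 for Rfx5 and 0.20 for Rfxank. Ciita, the class II transactivator gene, stayed under 1 TPM in all 10 libraries and was not tested. Isotype library 5 was the highest of the 10 libraries for 12 of the 15 members, and anti-PD-1 library 8 was the lowest for 11. Without libraries 5 and 8 the list median was -0.64.

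Class II promoters carry a shared set of boxes on which the RFX complex, NF-Y and CIITA assemble, so the 250 bases before the start of 3 members are printed (RefSeq, GRCm38). Capitals mark CTGATTGG, the Y box as searched on both strands, which lies 51, 62 and 46 bases before the start in H2-Aa, H2-Eb1 and H2-Oa.
H2-Aa, chr17:34287824-34288073, minus strand: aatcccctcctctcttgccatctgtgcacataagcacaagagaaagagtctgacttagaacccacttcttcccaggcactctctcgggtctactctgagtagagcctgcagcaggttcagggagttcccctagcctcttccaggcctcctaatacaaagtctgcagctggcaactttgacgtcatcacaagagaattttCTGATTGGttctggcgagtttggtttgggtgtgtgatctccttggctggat
H2-Eb1, chr17:34305617-34305866, plus strand: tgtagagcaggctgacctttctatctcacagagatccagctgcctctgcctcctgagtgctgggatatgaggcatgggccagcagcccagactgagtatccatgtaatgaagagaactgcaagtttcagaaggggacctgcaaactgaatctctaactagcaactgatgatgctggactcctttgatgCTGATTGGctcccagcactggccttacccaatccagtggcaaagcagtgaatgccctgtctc
H2-Oa, chr17:34092129-34092378, plus strand: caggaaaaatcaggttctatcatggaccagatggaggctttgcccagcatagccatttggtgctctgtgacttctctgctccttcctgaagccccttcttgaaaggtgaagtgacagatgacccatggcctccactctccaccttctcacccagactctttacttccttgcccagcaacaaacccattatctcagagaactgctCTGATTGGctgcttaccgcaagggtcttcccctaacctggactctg
These letters were found in 4 of the 8 H2 genes of the list with a promoter entry and in 4.1% of all 32851 entries. The inner GATTGG, which overlaps that motif, was found in 8 of 8 and in 16.1%. Both searches took the whole entry, which may reach beyond the 250 bases printed. H2 genes were counted by gene and all promoters by entry. H2-Oa, an inhibitor of peptide exchange made in B cells and dendritic cells, averaged less than H2-Aa in TPM and had a log2 difference of -0.79.

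Macrophage and monocyte markers showed the same distribution over libraries. Of 30 members, 29 passed the filter; 27 had a lower mean log2 level under anti-PD-1, 18 of these at an unadjusted p under 0.05 (3.14% of all genes), and none passed the adjusted test. The median difference was -1.06, with -1.92 at the lowest and 0.45 at the highest, and 15 members were at -1 or lower (1.87% of all genes). No member had groups without overlap. Lyz2, the lysozyme gene of macrophages and neutrophils (chr10:117277331-117282321), was listed at 133, 196, 32.0, 57.4 and 142 TPM in anti-PD-1 libraries 6 to 10, against 117, 362, 224, 387 and 838 TPM in isotype libraries 1 to 5. Anti-PD-1 library 8 was lowest and isotype library 5 highest, and isotype library 1 lay between anti-PD-1 libraries 9 and 6. The log2 difference was -1.75 ± 0.62 (SE, adjusted p = 0.725).

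The complement gene C1qb of tissue macrophages (chr4:136880129-136886187) was listed at 37.6, 78.6, 9.92, 18.3 and 39.4 TPM under anti-PD-1 and at 41.4, 127, 81.1, 147 and 274 TPM under isotype (log2 difference -1.89 ± 0.65, adjusted p = 0.713). Only anti-PD-1 library 7 entered the isotype range. Its partner C1qa averaged 19.2 ± 15.3 TPM under anti-PD-1 and 60.2 ± 40.2 TPM under isotype (SD, n = 5 each). The endotoxin co-receptor gene Cd14 had the largest difference of the list, -1.92 ± 0.60, with 0.499 to 8.02 TPM under anti-PD-1 and 5.96 to 42.8 TPM under isotype (adjusted p = 0.590). The adaptor gene Tyrobp, shared by macrophages and NK cells, averaged 90.4 ± 21.3 TPM under anti-PD-1 and 250.2 ± 117 TPM under isotype, and the related Fcer1g averaged 481 ± 170 and 856 ± 328 TPM in the same order. The Fc receptor genes Fcgr1 and Fcgr3 had differences of -1.30 and -1.66, the lysosomal marker Cd68 one of -1.23, the F4/80 gene Adgre1 one of -1.34, and the CSF1 receptor gene Csf1r one of -0.86.

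Several members did not share the shift. The galectin-3 gene Lgals3 averaged 511 ± 79.7 TPM under anti-PD-1 and 486 ± 60.0 TPM under isotype, and the difference was -0.16 for the protease gene Ctsd, -0.40 for Ly6c2, which memory CD8 T cells also express, and 0.45 for the chemokine receptor gene Ccr2. Summed over the whole list, macrophage and monocyte transcripts came to 3728 ± 982.3 TPM under anti-PD-1 and 5722 ± 1715 TPM under isotype (SD, n = 5 each). The ranges overlapped, at 2113 to 4561 TPM under anti-PD-1 and 3080 to 7342 TPM under isotype, with isotype library 3 highest. The sum of 12 macrophage genes (C1qa, C1qb, C1qc, Lyz2, Apoe, Ms4a7, Aif1, Cd68, Fcgr3, Cd14, Csf1r and Adgre1), chosen after the data were seen and without the members that did not share the shift, was 356, 611, 104.5, 173 and 365 TPM in anti-PD-1 libraries 6 to 10, against 357, 945, 664, 1125 and 2287 TPM in isotype libraries 1 to 5. As a share of the summed T cell markers it was 2.02%, 4.08%, 0.874%, 0.928% and 2.51% under anti-PD-1, against 3.74%, 7.82%, 4.06%, 8.31% and 14.5% under isotype. Anti-PD-1 library 7 thus lay just above isotype libraries 1 and 3, and the other anti-PD-1 libraries lay below all isotype libraries. Because the 12 genes were chosen on these values, this near-separation cannot count as a separate result. The T cell sum itself averaged 15540 TPM under anti-PD-1 and 13450 TPM under isotype. The summed Cd74, H2-Aa, H2-Ab1 and H2-Eb1 came to 0.941% to 2.95% of the T cell sum under anti-PD-1 and to 3.02% to 10.4% under isotype. Set against the 12 macrophage genes, the same 4 transcripts came to 72.3% to 126% under anti-PD-1 and 53.1% to 96.5% under isotype. The part of sorted non-T cells in these values was not tested.

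**Figure D2:**
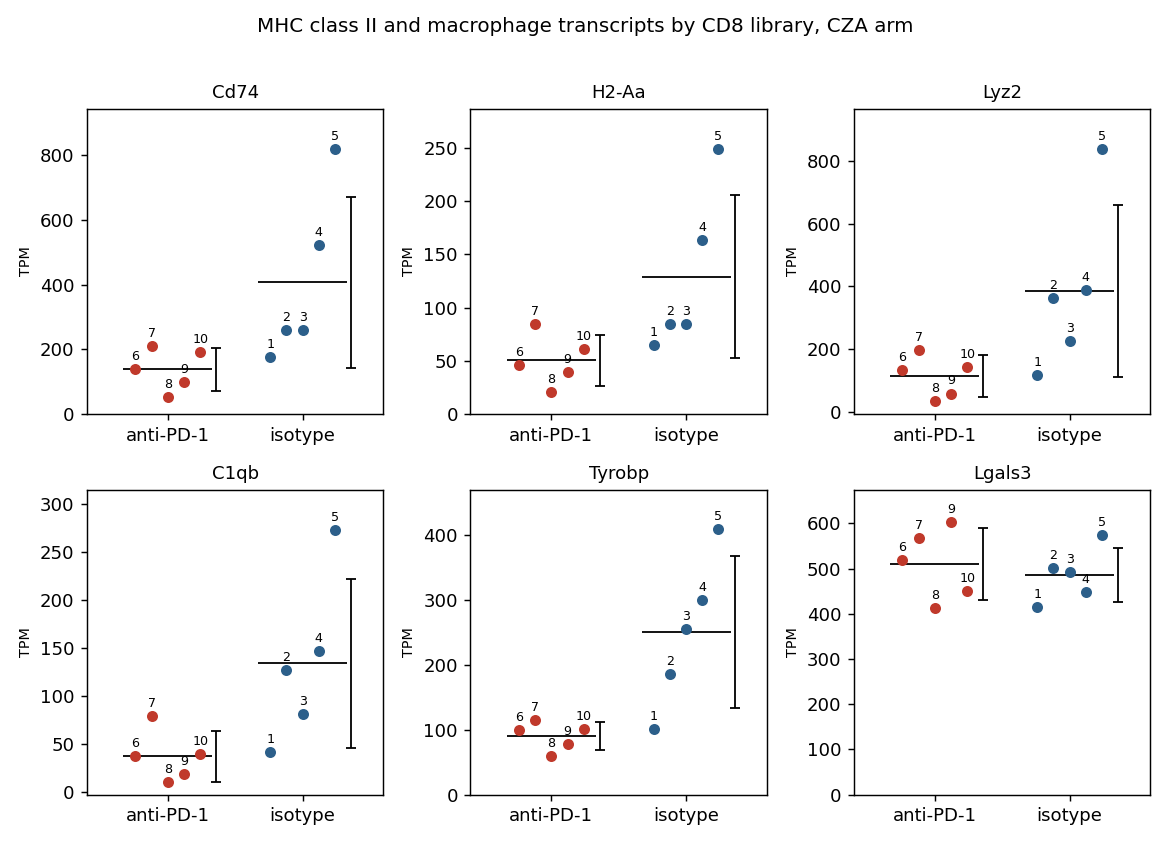
TPM of 2 MHC class II presentation genes and 4 macrophage-list genes in the CD8 libraries of the CZA arm; points are libraries with their numbers, anti-PD-1 left and isotype right, lines are means and bars the SD (n = 5 each). Isotype libraries 4 and 5 stand above the anti-PD-1 libraries in each panel but Lgals3, and isotype library 1 stands at or near the anti-PD-1 level.

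**Figure D3:**
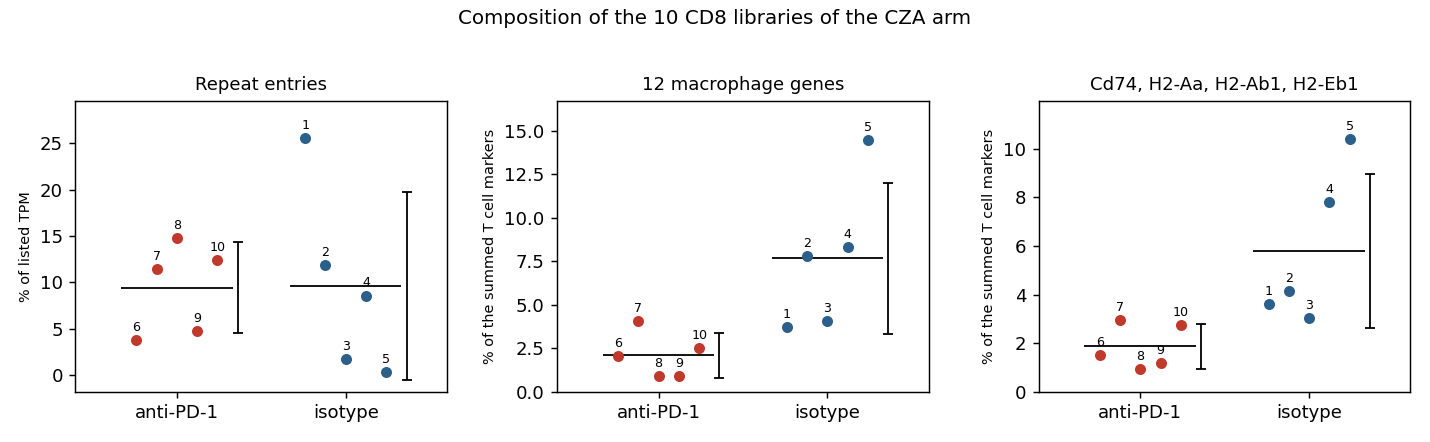
Share of listed TPM in repeat entries, and 12 macrophage genes and 4 class II presentation genes as a percentage of the summed T cell markers, by CD8 library of the CZA arm; points are libraries with their numbers, anti-PD-1 left and isotype right, lines are means and bars the SD (n = 5 each). Isotype library 1 has the highest repeat share, 25.5%, and isotype library 5 the lowest, 0.351%, and the highest share of the 12 macrophage genes, 14.5%. These 12 genes were chosen after the data were seen, without list members that did not share the shift.

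Removing 1 library moved the macrophage median to between -1.36 and -0.83 and the MHC class II median to between -1.11 and -0.82. Isotype library 5 was highest for 19 of the 29 macrophage members and anti-PD-1 library 8 was lowest for 23. Without both, the macrophage median was -0.78. Scaling by the median-ratio method gave -1.04 for the macrophage list and -0.94 for the MHC class II list, and rescaling without repeat entries gave -1.06 and -0.95.

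Dendritic cell markers were split. Of 17 members, 14 passed the filter, with a median of -0.57; 7 were lower at an unadjusted p under 0.05 (3.14% of all genes) and none was higher (1.96%). Cd83, which stabilises class II molecules on activated dendritic cells and lymphocytes (chr13:43784775-43803132), was listed at 6.83, 3.77, 2.58, 1.86 and 2.55 TPM under anti-PD-1, against 8.24, 11.8, 10.5, 15.8 and 11.4 TPM under isotype. The groups did not overlap, and the log2 difference was -1.54 ± 0.38 (SE, adjusted p = 0.401). The migratory dendritic cell chemokine genes Ccl17 and Ccl22 and the lectin gene Clec10a had differences of -1.33, -0.93 and -1.17, while Clec9a, a marker of cross-presenting dendritic cells, was under 1 TPM in all 10 libraries. Xcr1, the receptor gene of the same subset, was higher without overlap, at 3.32 to 6.22 TPM under anti-PD-1 and 2.81 to 3.08 TPM under isotype, with a log2 difference of 0.44 (adjusted p = 0.997). Of 10 neutrophil markers, 5 passed the filter, and S100a8 reached 44.9 TPM in isotype library 5 but 6.78 TPM or less in all other libraries.

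NK cell markers were split between receptor families. Of the 24 members, 23 were listed and 20 passed the filter, with a median difference of -0.18; 6 were lower (3.14% of all genes) and 1 was higher (1.96%) at an unadjusted p under 0.05, and none passed the adjusted test. Of the 23, 4 are also in the effector or exhaustion lists, and activated CD8 T cells express several of the others. Klrb1c, which encodes NK1.1 (chr6:128778485-128789215), was listed at 10.0, 7.07, 7.17, 12.5 and 8.51 TPM under anti-PD-1, against 13.7, 16.8, 56.9, 25.6 and 16.8 TPM under isotype. All anti-PD-1 libraries lay below all isotype libraries, and isotype library 3 stood apart at the top (log2 difference -1.25 ± 0.38, adjusted p = 0.586). Klrb1a, a related lectin receptor gene outside the list (chr6:128609227-128623533), was listed at 8.20, 2.09, 5.87, 4.63 and 3.50 TPM under anti-PD-1, against 8.59, 15.1, 34.2, 21.4 and 15.4 TPM under isotype. It also had no overlap, and its log2 difference of -1.73 ± 0.39 had the smallest p among the 10 lower genes of the naming rule (adjusted p = 0.316).

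The Ly49 receptor genes, which bind MHC class I, were also highest in isotype libraries 3 and 4. Klra1 was listed at 29.8, 14.6, 11.4, 19.9 and 10.4 TPM under anti-PD-1, against 22.4, 31.3, 68.7, 46.2 and 24 TPM under isotype. Isotype library 3 was highest and only anti-PD-1 library 6 reached the isotype range. The differences were -1.09 ± 0.42 for Klra1, -0.94 ± 0.35 for Klra3, -1.20 ± 0.40 for Klra9 and -1.12 ± 0.46 for Klra7 (SE, adjusted p = 0.805, 0.80, 0.713 and 0.870). These are related members of 1 family at 1 locus on chromosome 6, and the sharing of reads among them was not tested. The natural cytotoxicity receptor gene Ncr1, which defines NK cells, held 0.403 to 1.08 TPM under anti-PD-1 and 0.416 to 3.50 TPM under isotype and did not pass the filter. The NKG2 and CD94 genes that activated CD8 T cells share did not move with the Ly49 genes: Klrd1 averaged 1406 ± 321 TPM under anti-PD-1 and 1265 ± 219 TPM under isotype, and the differences were 0.25 for Klrc1 and 0.22 for Klrk1. Styk1, a kinase-like receptor gene of NK and effector cells, was the member higher at an unadjusted p under 0.05, with 32.0 ± 7.03 TPM under anti-PD-1 and 17.8 ± 7.43 TPM under isotype (log2 difference 0.89 ± 0.36, adjusted p = 0.856). NK list values were highest in isotype library 3 for 9 of the 20 members. The part of NK or NK-like cells in these values was not tested.

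Inhibitory receptor and exhaustion transcripts had higher means in most members under anti-PD-1, with no gene that passed. All 24 listed members were tested; 21 were higher and 3 lower, with a median of 0.32 and a range of -0.36 to 0.76, and 2 were higher at an unadjusted p under 0.05 (1.96% of all genes). The antibody's target gene Pdcd1 was listed at 124.5, 102, 65.9, 255 and 166.5 TPM in anti-PD-1 libraries 6 to 10, against 101, 92.6, 112, 98.3 and 180 TPM in isotype libraries 1 to 5. Anti-PD-1 library 9 was highest and library 8 lowest, so the isotype range lay inside the anti-PD-1 range (log2 difference 0.19 ± 0.40, adjusted p = 0.997). Havcr2, which encodes TIM-3, was listed at 15.1, 30.1, 21.1, 42.3 and 36.1 TPM under anti-PD-1, against 19.7, 17.7, 7.52, 11.0 and 31.5 TPM under isotype (0.76 ± 0.40, adjusted p = 0.997). Anti-PD-1 libraries 9 and 10 lay above all isotype libraries, and library 6 lay below isotype libraries 1, 2 and 5.

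Lag3, another inhibitory receptor gene that binds class II molecules, averaged 57.6 ± 23.4 TPM under anti-PD-1 and 38.6 ± 7.72 TPM under isotype, and 4 of 5 anti-PD-1 libraries exceeded the isotype range. Ctla4 averaged 116 ± 44.1 TPM under anti-PD-1 and 84.9 ± 40.4 TPM under isotype, while Tigit averaged 53.3 ± 27.5 and 45.8 ± 8.10 TPM in the same order. The ectonucleotidase gene Entpd1, which encodes CD39, averaged 22.7 ± 2.46 TPM under anti-PD-1 and 15.2 ± 6.52 TPM under isotype (0.62 ± 0.35, adjusted p = 0.997). Among the transcription factors, Tox had a difference of 0.21 ± 0.24, Prdm1, which encodes BLIMP-1, one of 0.70 ± 0.32, and Nr4a1, which responds to the T cell receptor, one of 0.29 ± 0.33. Tox2 was 1 of 2 members without overlap (1.15% of all genes on the higher side), at 0.913, 1.40, 1.58, 1.22 and 1.92 TPM under anti-PD-1, against 0.741, 0.523, 0.368, 0.833 and 0.443 TPM under isotype (0.60 ± 0.22, adjusted p = 0.782). The other was Nfatc1, a calcium-regulated factor gene, at 20.3 to 27.7 TPM under anti-PD-1 and 15.2 to 20.0 TPM under isotype.

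Anti-PD-1 library 9 was the highest of the 10 libraries for 14 of the 24 exhaustion members, and it was also highest for 9 of 18 T cell markers and 10 of 23 effector genes. Without library 9 the exhaustion median was 0.26, with Pdcd1 at -0.06 and Tigit at -0.16. The T cell list itself had a median of 0.16, with 17 of 18 members higher; Lck, the kinase gene of T cell receptor signalling, did not overlap, at 788 to 892 TPM under anti-PD-1 and 479 to 699 TPM under isotype. Havcr2 and Lag3 transcripts hold repeated-dinucleotide runs of 56 and 46 bases, and the part of repeat-derived reads in their values was not tested.

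**Figure D4:**
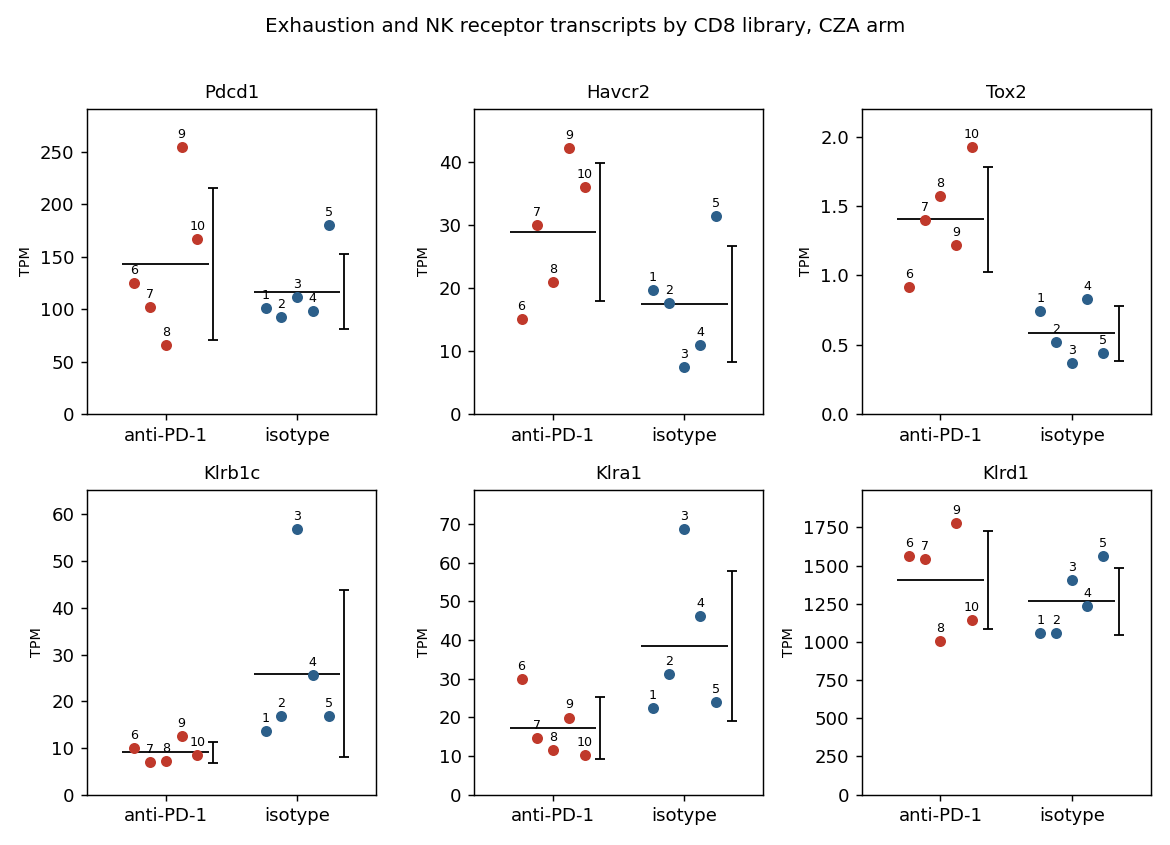
TPM of 3 exhaustion-list genes (Pdcd1, Havcr2, Tox2) and 3 NK-list genes (Klrb1c, Klra1, Klrd1) in the CD8 libraries of the CZA arm; points are libraries with their numbers, anti-PD-1 left and isotype right, lines are means and bars the SD (n = 5 each). Tox2 and Klrb1c separate the groups, in opposite directions, and Pdcd1 and Klrd1 overlap. Tox2 lies near the floor, with all isotype values under 1 TPM.

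Stem-like and memory transcripts had a median of -0.25 over 14 members, with 2 lower at an unadjusted p under 0.05 (3.14% of all genes). The quiescence and homing genes Id3 and Ccr7 averaged 9.28 ± 4.17 and 27.5 ± 15.6 TPM under anti-PD-1, against 21.1 ± 7.34 and 54.7 ± 20.1 TPM under isotype, with log2 differences of -1.14 and -1.07 (adjusted p = 0.904 and 0.867). Tcf7 had a difference of -0.37 ± 0.41 and Slamf6, a surface marker of stem-like cells, one of -0.39 ± 0.30. Anti-PD-1 library 10 was lowest for 9 of these 14 members.

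Effector transcripts had a median of 0.24 over 23 members, of which 18 were higher. The chemokine gene Ccl3 averaged 765 ± 155 TPM under anti-PD-1 and 450.1 ± 251 TPM under isotype, and Ccl4 averaged 3872 ± 1492 and 2130 ± 1458 TPM in the same order (log2 differences 0.89 and 0.94, adjusted p = 0.930 and 0.963). The cytotoxic genes Gzmb and Prf1 had differences of 0.20 ± 0.35 and 0.26 ± 0.50, and the cytokine gene Ifng one of 0.38 ± 0.39. The lymphotoxin gene Lta went the other way without overlap, at 27 to 41.3 TPM under anti-PD-1 and 42.6 to 70.6 TPM under isotype (-0.78 ± 0.35, adjusted p = 0.930). Mki67, the proliferation marker, averaged 12.4 ± 2.67 TPM under anti-PD-1 and 11.6 ± 1.70 TPM under isotype.

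The inducible Hsp70 chaperone gene Hspa1a (chr17:34969190-34972156) was listed at 2.96, 1.93, 1.94, 1.52 and 3.36 TPM under anti-PD-1, against 7.82, 4.43, 17.6, 9.44 and 8.24 TPM under isotype (-1.57 ± 0.42, adjusted p = 0.542). Its near-identical neighbour Hspa1b and the co-chaperone gene Dnajb1 also had no overlap, with differences of -1.17 and -0.52. These were the 3 members without overlap among 29 immediate early and heat shock genes (0.44% of all genes), whose median was -0.07. Type I interferon response genes had a median of -0.32 over 32 members, 26 of them lower and 6 at an unadjusted p under 0.05 (3.14% of all genes); Oasl1 and Oasl2, antiviral oligoadenylate synthetase-like genes, had differences of -1.28 and -1.09. Anti-PD-1 library 10 was lowest for 12 of these members and isotype library 2 highest for 15. Interferon gamma response genes, including class I presentation, had a median of -0.06 over 26 members.

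Among the remaining lower genes of the naming rule, the cathepsin H gene Ctsh had a log2 difference of -1.79 ± 0.43, with 2.01 to 11.1 TPM under anti-PD-1 and 6.95 to 45.1 TPM under isotype (adjusted p = 0.371). Selenop, a selenium carrier gene, and Cd300c2, a myeloid receptor gene, had differences of -0.99 and -1.73. Slc16a11, a monocarboxylate transporter family gene, had no overlap, at 1.12 to 7.25 TPM under anti-PD-1 and 7.26 to 15.1 TPM under isotype (-1.40 ± 0.39, adjusted p = 0.542). Cdk5rap1, a gene of tRNA modification, and Pdlim1, a cytoskeletal adaptor gene, had differences of -1.07 and -1.24. None of the 10 passed the adjusted test.

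**Figure D5:**
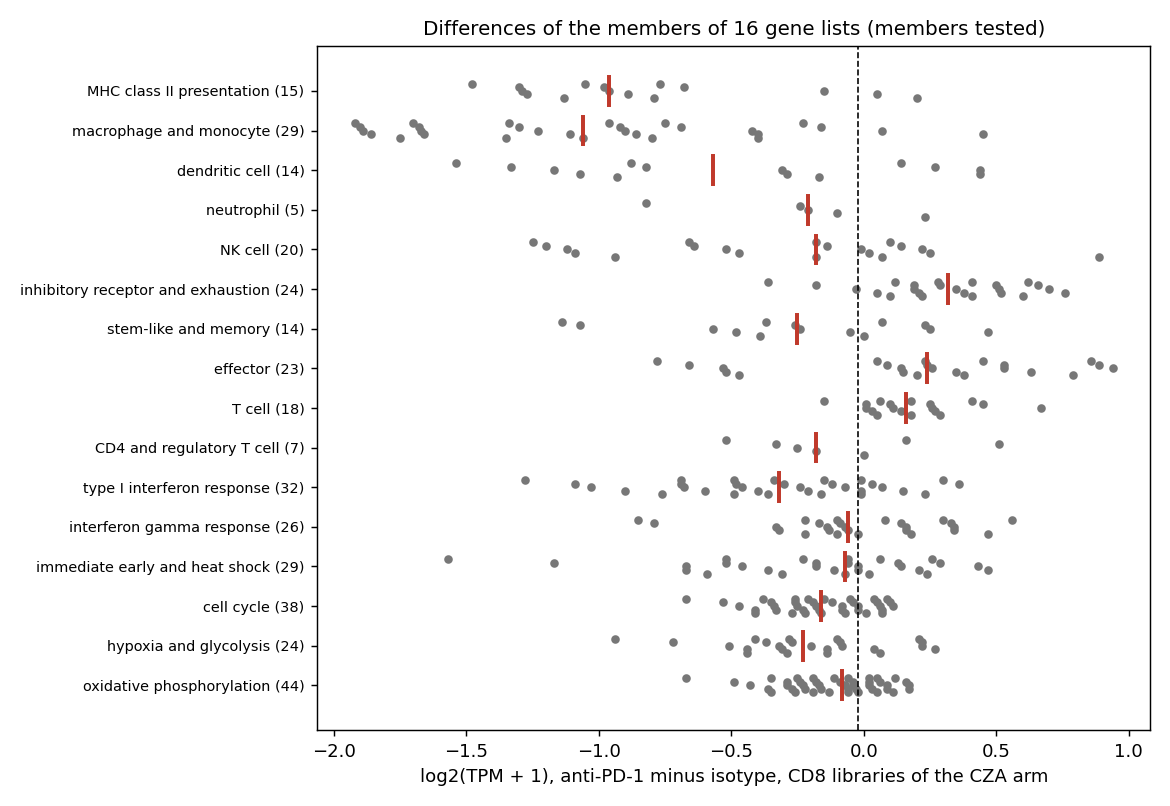
Difference in log2(TPM + 1) between anti-PD-1 and isotype CD8 libraries of the CZA arm for the tested members of 16 gene lists; each point is a gene, red bars are list medians, and the dashed line is the median of all genes tested, -0.02. The macrophage and MHC class II lists lie mostly below -0.5, with medians of -1.06 and -0.96, and most exhaustion members lie above 0, with a median of 0.32.

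The difference between the arms was tested by the interaction, the anti-PD-1 effect in the CZA arm minus that in the CZA+DAV132 arm, whose 10 CD8 libraries are separate. None of 12942 genes passed at an adjusted p under 0.05 (0%), and 2036 had an unadjusted p under 0.05 (15.7%). The median interaction over all genes was 0.37 on TPM and 0.01 after median-ratio scaling. In the anti-PD-1 group of the CZA+DAV132 arm, library 19 had a repeat share of 69.3% and a size factor of 0.349. Library 16 of the same group had 29.2% and 0.625. Both libraries lie on 1 side of that arm's contrast, and the calls given for that arm are on unscaled TPM. In the CZA+DAV132 arm the median of all genes was -0.34, or -0.00 after scaling, and 2509 genes passed as lower (19.4%) and 533 as higher (4.12%). The MHC class II list had a median of -1.08 there, or -0.61 after scaling, and 7 of 15 members passed as lower, beside -0.96 with 0 passing in the CZA arm; 2 members had an unadjusted interaction p under 0.05, and the interaction median was 0.15, or -0.28 after median-ratio scaling. The macrophage list had -1.09, or -0.72 after scaling, with 9 of 29 passing as lower, beside -1.06 with 0 passing; 2 had an unadjusted interaction p under 0.05, and the interaction median was -0.12, or -0.45 after scaling. Cd74 itself had a log2 difference of -1.64 in the CZA+DAV132 arm (adjusted p = 0.0188), and its interaction was 0.15 ± 0.67.

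On unscaled TPM, where the median over all genes was 0.37, other lists had larger interaction medians. After median-ratio scaling the macrophage list had -0.45, and the NK and exhaustion medians were no larger in size. In the CZA+DAV132 arm the NK list had a median of -1.07, or -0.60 after scaling, with 12 of 20 passing as lower (19.4% of all genes). It had an interaction median of 0.83, or 0.44 after median-ratio scaling. An unadjusted interaction p under 0.05 was seen for 7 NK members (15.7% of all genes), or 4 after scaling (1985 of 12942 genes). The exhaustion list had -0.19 there, which turned to 0.21 after scaling, with 4 of 24 passing as lower (19.4% of all genes) and 2 as higher (4.12%). Its interaction median was 0.47, or 0.07 after median-ratio scaling. An unadjusted interaction p under 0.05 was seen for 6 exhaustion members (15.7% of all genes), or 7 after scaling (1985 of 12942 genes). Of the 6 members on unscaled TPM, Ctla4 had an interaction of 2.09 ± 0.55 and Nr4a1 one of 1.72 ± 0.47. Rgs16, a regulator of G protein signalling, had one of 1.68 ± 0.50, also on unscaled TPM (limma adjusted p = 0.290 for each gene). Oxidative phosphorylation genes had a median of -0.08 in the CZA arm beside -1.11 in the CZA+DAV132 arm, or -0.63 after scaling. Their interaction median was 1.04, or 0.57 after median-ratio scaling. An unadjusted interaction p under 0.05 was seen for 33 of 44 members (15.7% of all genes), or 31 after scaling (1985 of 12942 genes).

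The same contrast in the 10 libraries labelled bulk tumour, from another run of the experiment with the same transplant material, called 38 of 13326 genes (0.285%), and 1745 had an unadjusted p under 0.05 (13.1%). The median over all genes there was 0.25, and 0.08 after median-ratio scaling. No member of the MHC class II, macrophage, NK or exhaustion lists was called. Their medians were -0.02, -0.54, -0.04 and 0.52, or -0.22, -0.60, -0.20 and 0.30 after scaling. Of the 15 class II members tested there, 2 were lower and 1 was higher at an unadjusted p under 0.05 (278 and 1467 of all 13326 genes). Cd74 and H2-Ab1 both lay below the class II median. Cd74 averaged 87.4 ± 28.4 TPM under anti-PD-1 and 183 ± 155 TPM under isotype in those libraries (SD, n = 5 each; log2 difference -0.62, adjusted p = 0.654), and H2-Ab1 had a difference of -1.66 (adjusted p = 0.198). Klrb1a, lower in the CD8 libraries, averaged 9.27 ± 6.99 TPM under anti-PD-1 and 3.45 ± 4.25 TPM under isotype. The tables were fitted apart, and levels are not compared between them. Gm12895 was under 1 TPM on average in both bulk groups, at 0.235 TPM under anti-PD-1 and 0.271 TPM under isotype.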

How the data were processed

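Per the labels, 20 libraries held RNA of tumour CD8+ T cells and 19 that of bulk tumour. Per the labels' protocols, RiboCop removed ribosomal RNA from 300 ng of total RNA, and NEBNext Ultra II Directional libraries followed. The authors deposited TPM of 28023 gene symbols, in 1 table for the CD8 and 1 for the bulk libraries. The tool and build were kallisto 0.45 and GRCm38, per the submitters' processing notes. The annotation, and how transcripts were summed, is not given in the sources used here. Gene positions came from GENCODE M21 by symbol (27787 matched), and promoters from RefSeq. TPM keep no depth, so precision rests on the number of libraries. Reads shared by near-identical transcripts cannot be assigned.

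Tests used log2(TPM + 1), which understates changes of low genes. A mean for each of 4 groups was fitted to all 20 CD8 libraries with limma 3.58.1 in R 4.3.3 (empirical Bayes, mean-variance trend), for genes that reached 1 TPM in 4 or more libraries. The spread of each gene was thus estimated over all 4 groups, those of the CZA+DAV132 arm included. P-values were two-sided, adjusted by the Benjamini-Hochberg method over all genes tested and called under 0.05. The bulk-tumour table was fitted separately in the same way. The test was run on simulated data with 200 changed genes in each of 3 runs, in which 1.64% to 4.32% of the calls were false. Repeat share and size factor were compared by exact permutation of 5 against 5 libraries, where the smallest possible p is 0.00794.

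The contrast, the 21 gene lists and the genes were chosen with earlier results of these data known, so lists are described by counts and medians, without tests. The rule for named genes took the 10 genes with the smallest p in each direction with a mean of at least 5 TPM, leaving out predicted genes, pseudogenes, histone, antigen receptor, mitochondrial and small non-coding genes; it took calls by size first, of which none qualified. It added the 5 members with the smallest p of the macrophage, MHC class II, NK and exhaustion lists and a fixed set of markers. Genes outside it are list members or were named after their values were seen. Alternatives were a fit of only the compared groups, a pseudocount of 0.1, no filter, a mean of at least 5 TPM, median-ratio scaling over 11992 genes, rescaling without mitochondrial and small non-coding genes or without 18 repeat entries, array weights and each library left out. Leaving out libraries 5 and 8, or 16 and 19 of the other arm, was added after seeing the data. Some results that the rule or the lists would name are not reported here.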

Additional observations from a re-analysis of the deposited data

Results flagged for a closer look

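Among 84 groups of 5 libraries examined for a library standing apart from the rest, 5 were found, where chance gives about 1 in 20. This count is near the chance share, so the values below are only described. In the isotype group, library 5 was apart for 4 effector and inhibitory receptor genes. Gzmb was at 2569 TPM there and at 1085 to 1359 TPM in the other isotype libraries. Prf1 was at 95.9 TPM, with 22.2 to 42.8 TPM in the others. Ifng was at 712 TPM, with 166.5 to 287 TPM in the others. Pdcd1 was at 179.9 TPM, with 92.6 to 112 TPM in the others. The same library was highest of the 10 for 19 of 29 macrophage members and 12 of 15 MHC class II members. Isotype library 3 was apart for Klrb1c, at 56.9 TPM, with 13.7 to 25.6 TPM in the others.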

How the results depend on the processing

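The count of 2 genes called in the CZA arm depended on the libraries and the scaling. It was 5 with median-ratio scaling, adding AA474408, Gpcpd1 and Trim59, and 6 without libraries 16 and 19 of the other arm, which added Zfand3 to these. It was 0 with no filter, 0 after rescaling without mitochondrial and small non-coding genes, and 0 without libraries 5 and 8. Leaving out each of the 10 libraries gave 0 to 1 calls, with 448 to 886 genes at an unadjusted p under 0.05 where the full set had 661. The calls gained were Igha without library 1, Gm6265 without library 3 and Gm14450 without library 6, each lower under anti-PD-1; genes added here were named after their values were seen. Gm12895 and Gm12896 passed in 7 of 20 alternatives. The interaction count was 0, and 1 with median-ratio scaling. In the bulk-tumour libraries the count of 38 became 97 with a pseudocount of 0.1, 9 with no filter, 24 at a mean of at least 5 TPM and 24 with median-ratio scaling. List medians kept their sign in all 20 alternatives: -1.36 to -0.78 for macrophage, -1.11 to -0.64 for MHC class II, -0.24 to -0.08 for NK and 0.26 to 0.44 for exhaustion genes. Of 1291 recomputed values of the 65 named genes, 18 changed sign, in 7 genes that had not passed. Cd4 was 0.01 after rescaling without mitochondrial and small non-coding genes, 0.08 with array weights and, with each library left out, -0.12 to 0.09. Over the same omissions Cd8a was -0.05 to 0.14, Tigit -0.16 to 0.36, Pdcd1 -0.06 to 0.43, Prf1 -0.09 to 0.67, Cd3e -0.06 to 0.29 and Mki67 -0.03 to 0.18. The causes were not tested. No paired analysis was possible because the library numbers differ between the groups.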

Other observations

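The 12 B and plasma cell markers, of which 6 passed the filter with a median of -0.19, were split. Igkc, the kappa light chain constant gene, was listed at 85.0, 33.9, 40.0, 114 and 50.9 TPM in anti-PD-1 libraries 6 to 10, against 21.1, 14.6, 32.2, 27.6 and 24.6 TPM in isotype libraries 1 to 5, without overlap (log2 difference 1.29 ± 0.63, limma adjusted p = 0.985). Cd79a and Ms4a1, which define B cells, were under 1 TPM in all 10 libraries. Cd22, a B cell lectin gene whose transcript holds a repeated-dinucleotide run of 46 bases, was listed at 17.3, 59.1, 82.1, 25.3 and 73.6 TPM under anti-PD-1, against 120, 67.7, 2.65, 2.79 and 2.40 TPM under isotype. Isotype libraries 1 and 2 and anti-PD-1 libraries 7, 8 and 10 were high in it, and isotype libraries 3 to 5 were low.

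Lars2, which encodes the mitochondrial leucyl-tRNA synthetase, was listed at 8143, 8139, 7182, 14210 and 18670 TPM under anti-PD-1, against 7178, 6947, 6594, 6170 and 5073 TPM under isotype, with no overlap (log2 difference 0.72, adjusted p = 0.904). The part of reads from other RNA in the Lars2 values was not tested. The class I transactivator gene Nlrc5 averaged 97.1 ± 5.20 TPM under anti-PD-1 and 70.4 ± 11.4 TPM under isotype (SD, n = 5 each), also with no overlap (log2 difference 0.47, adjusted p = 0.997). Of all genes tested, 1.15% had no overlap on the higher side.

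The other gene lists had median log2 differences of -0.18 for CD4 and regulatory T cell genes, -0.16 for cell cycle genes, -0.23 for hypoxia and glycolysis genes, -0.48 for fibroblast and sarcoma genes, -0.17 for endothelial genes and -0.47 for erythroid genes. The neutrophil median was -0.21. The satellite repeat list, which also holds the simple-repeat entry Gm17604 with a difference of 3.74, had a median of -2.53 over 12 tested members. The other 11 were lower, -3.99 at the lowest, and 0 of them had an unadjusted limma p under 0.05. Isotype library 1 was the highest of the 10 libraries for 11 of the 12 members. Satellite entries took 5.29% and 4.86% of the listed TPM in isotype libraries 1 and 4. In the remaining isotype libraries they took 0.00278% to 0.0105%, and under anti-PD-1 0.00295% to 0.229%. The median over all genes tested was -0.02.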
